A study of Homo sapiens with 6 samples.

Results

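RNA from DU145 cells labelled RCC2 KO was compared with RNA from DU145 cells labelled scrambled control (Scr). DU145 is an established human line of metastatic, castration-resistant prostate cancer. All 12347 genes with at least 1 FPKM in either condition were included, of 27381 genes in the deposited table. FPKM is the number of sequenced fragments scaled to the length of the transcript and to the depth of the library. Each difference is that of log2(FPKM + 1), RCC2 KO minus Scr, a scale that understates the difference of genes with low values.

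The series has 6 libraries, 2 each of Scr, CD24 KO and RCC2 KO cells, all of them DU145. Per the study's methods, cells were transfected with a plasmid carrying Cas9, GFP and an sgRNA against the target, sorted for GFP and expanded as clones, and the Scr cells received Cas9 with an sgRNA that has no target. By these methods both groups used here went through Cas9 and clonal growth, and the knockout cannot be told apart from differences between clones. The control libraries are titled Scr, while their descriptions and their column carry only the stem Du. The table gives 1 FPKM value per gene and condition, and whether the RCC2 KO column combines its 2 libraries or repeats the first of them cannot be read from its name. No SD and no test was therefore possible, no difference below has a replicate check, and the words higher and lower describe these values only.

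RCC2 is a chromosome-binding protein related to RCC1, the exchange factor of the Ran GTPase. It belongs to the machinery that brings the chromosomal passenger complex to centromeres, and it has been linked to the small GTPases RAC1 and ARF6, which act in migration. Its loss in cultured cells is therefore usually studied through cell division, adhesion and migration.

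The RNA of the targeted gene did not follow the label. RCC2 was at 37.8 FPKM in Scr and at 41.8 FPKM in the libraries labelled RCC2 KO, a difference of 0.14. In the coordinates of the table, read as hg19, the gene is at chr1:17733251-17766250. CD24, which was not targeted in these cells, was at 93.2 FPKM in Scr and 214 FPKM in the libraries labelled RCC2 KO. In the libraries labelled CD24 KO, RCC2 was at 14.2 FPKM and CD24 at 309 FPKM, so the value listed for CD24 was not lower there either. CD24 KO below names that column by its label only. The CD24 value is assigned to an interval on chromosome Y, chrY:21034387-21438350 read as hg19, that 2 genes of the table share. Both CD24 and RCC2 have near-identical pseudogene copies. Which copy gave the fragments counted as CD24 was not tested, so its values may not be those of the edited gene. The study checked its RCC2 KO DU145 clones by Sanger sequencing and Western blot, that is in DNA and protein, which RNA levels do not measure. An unchanged RNA level is therefore no check of the knockout. Every direction given below rests on labels that the RNA of RCC2 does not mark. The study lists 4 genes with partial matches to its RCC2 sgRNAs, and none of them differed by 1.5-fold. MARS was at 111 and 109.8 FPKM, MAPKAPK3 at 30.3 and 34.2, CPNE2 at 27.3 and 25.1, and PRKCD at 14.6 and 14.5 FPKM, in Scr and RCC2 KO respectively.

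Epithelial markers were abundant in both conditions, with KRT8 at 336 and 348 FPKM, KRT18 at 293 and 305 FPKM and EPCAM at 58.9 and 58.6 FPKM. The prostate luminal markers KLK2 and KLK3 were listed at 0 in both. The summed FPKM of 6 fibroblast markers was 0.581 in Scr and 0.598 in RCC2 KO, and that of 4 endothelial markers 0.251 and 0.239. Of 5 leukocyte markers, PTPRC and CD3E were listed at 0 in both conditions. CD68, a lysosomal protein that many cells make, accounted for nearly all of their sum, at 37.1 and 38.4 FPKM.

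Most genes lay close to the diagonal. The SD of the log2 difference across genes was 0.42, its median 0.00, and 62.4% of genes lay within 0.2 of 0. The libraries labelled RCC2 KO held 52 genes (0.421%) at 2-fold or more above Scr and 102 genes (0.826%) at 2-fold or more below it. At 1.5-fold, 185 genes (1.5%) were higher and 482 genes (3.90%) lower. By any amount, 49.7% of genes were higher and 50.3% lower. These shares are the background for the gene lists below. Genes with low values made up more of these counts, since 11.5% of genes with a mean below 3 FPKM were past 1.5-fold, against 2.42% of those between 30 and 100 FPKM. Of the 154 genes past 2-fold, 22 were histone genes, 34 were small RNAs, 44 were listed at 0 in a column, and 67 shared their interval in the table with another gene, between which fragments may have been divided. Of all genes compared, 4136 (33.5%) shared their interval.

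**Figure D1:**
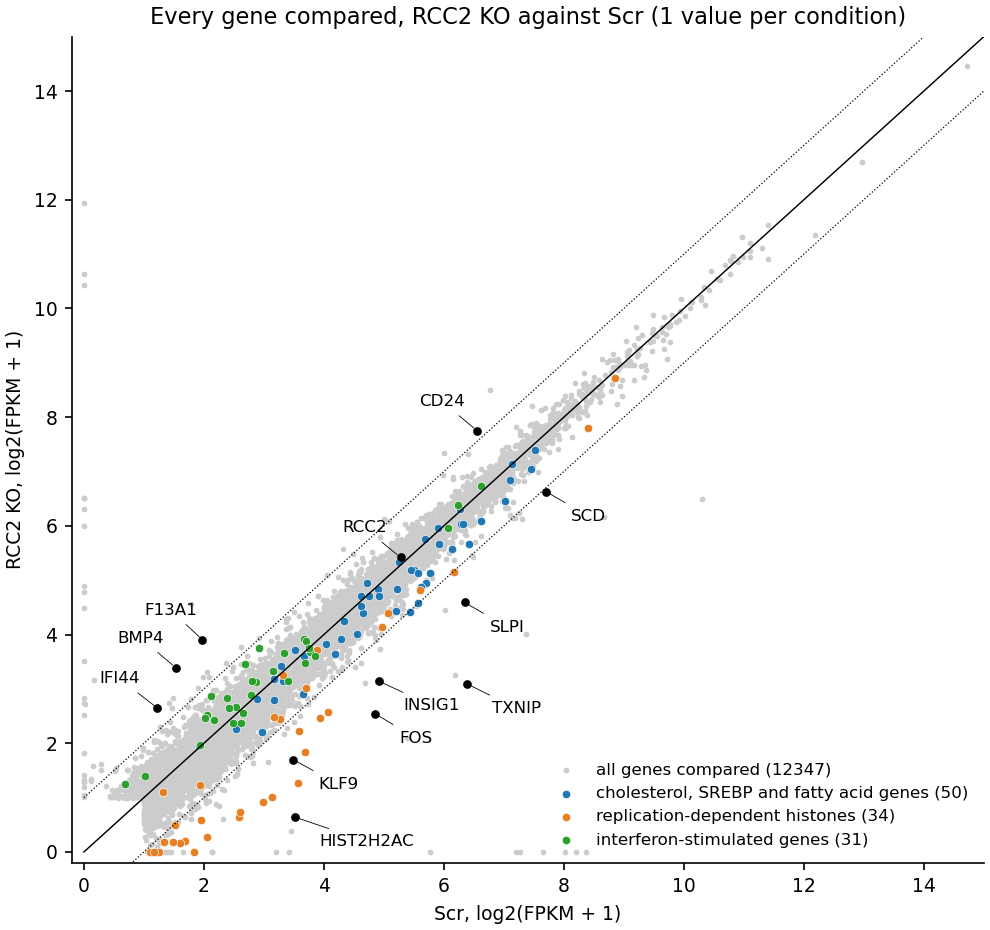
Scatter plot of log2(FPKM + 1) in Scr (x axis) and in RCC2 KO (y axis) for all 12347 genes compared, each point 1 gene with 1 value per condition. The solid line marks equal values and the dotted lines a 2-fold difference; TXNIP, FOS and INSIG1 lie well below the band, BMP4, F13A1 and IFI44 above it, RCC2 lies on the diagonal, and the points on the axes are genes listed at 0 in a column.

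Genes of sterol synthesis were lower in the libraries labelled RCC2 KO along nearly the whole pathway. Cells build cholesterol from acetyl-CoA through mevalonate and squalene, and when sterols in the endoplasmic reticulum run low, SCAP carries the precursors of SREBP-1 and SREBP-2 to the Golgi, where the proteases S1P and S2P release them to enter the nucleus. SREBP-2 mainly drives the genes of cholesterol synthesis, SREBP-1 those of fatty acid synthesis, and INSIG1, itself a target, holds SCAP back. Of 20 cholesterol synthesis genes, all were compared, 19 were lower and 6 were at least 1.5-fold lower, none at least 1.5-fold higher. Each had at least 1 FPKM in both conditions. Their median difference was -0.46, against 0.00 for all genes, and their summed level was 918 FPKM in Scr and 656 FPKM in RCC2 KO. In RNA from a whole culture, fewer cells that express a gene and less of its RNA per cell cannot be told apart.

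In the mevalonate part, 8 of 8 genes were lower. HMGCS1, which makes HMG-CoA, was at 42.5 FPKM in Scr and 20.3 FPKM in RCC2 KO, a difference of -1.03. IDI1, the isomerase of isopentenyl diphosphate, was at 51.2 and 29.9 FPKM (-0.76), with an interval shared by 3 genes. Smaller differences were those of FDPS, at 174 and 132 FPKM, and PMVK, at 26.1 and 25.2 FPKM.

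In the sterol part, 11 of 12 genes were lower. MSMO1, a C4-methylsterol oxidase, was at 46.6 and 22.9 FPKM (-0.99), and HSD17B7, a ketosteroid reductase of the same demethylation, at 6.79 and 3.59 FPKM (-0.76). SQLE, the squalene epoxidase, was at 53.3 and 34.2 FPKM (-0.63). FDFT1, the squalene synthase, was the most abundant, at 128 and 86.7 FPKM (-0.56). The exception was LSS, the lanosterol synthase, at 8.04 and 8.06 FPKM, and NSDHL and EBP were within 0.08 of equal.

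The regulators of the pathway differed by different amounts. INSIG1 had the lowest difference of the 18 genes compared for SREBP regulation and sterol handling, with 29.2 FPKM in Scr and 7.83 FPKM in RCC2 KO (-1.77), a ratio of 3.73 (hg19 chr7:155089482-155101945). Its relative INSIG2, which SREBP does not induce in the same way, was at 10.4 and 12.2 FPKM. SREBF2, which encodes SREBP-2, was at 46.6 and 34.0 FPKM (-0.44), and SREBF1 at 9.02 and 7.90 FPKM (-0.17). Of the 18 genes, 12 were lower, 2 at least 1.5-fold, and the median was -0.13. In uptake and transport, STARD4 had a difference of -0.38 and LPIN1 one of 0.13, with NPC2 at 139 and 139.5 FPKM and NPC1 at 59.5 and 50.1 FPKM. The sterol exporters ABCA1 and ABCG1, targets of the oxysterol receptor LXR, were under the 1 FPKM minimum in both conditions, at 0.722 and 0.341 FPKM and at 0.914 and 0.191 FPKM.

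Fatty acid synthesis was divided. SCD, which introduces the double bond of oleate, was at 208 and 97.9 FPKM (-1.08). FASN, the fatty acid synthase, was at 48.4 and 28.2 FPKM (-0.76), and ACSS2, which makes acetyl-CoA from acetate, at 11.5 and 6.47 FPKM (-0.74). These 3 genes were the only ones of 12 past 1.5-fold, and 8 of 12 were lower, with a median of -0.23. The elongases ELOVL1 and ELOVL6 and the desaturase FADS1 were slightly higher, FADS1 at 76.2 and 78.2 FPKM, whereas FADS2 was at 97.4 and 67.5 FPKM.

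**Figure D2:**
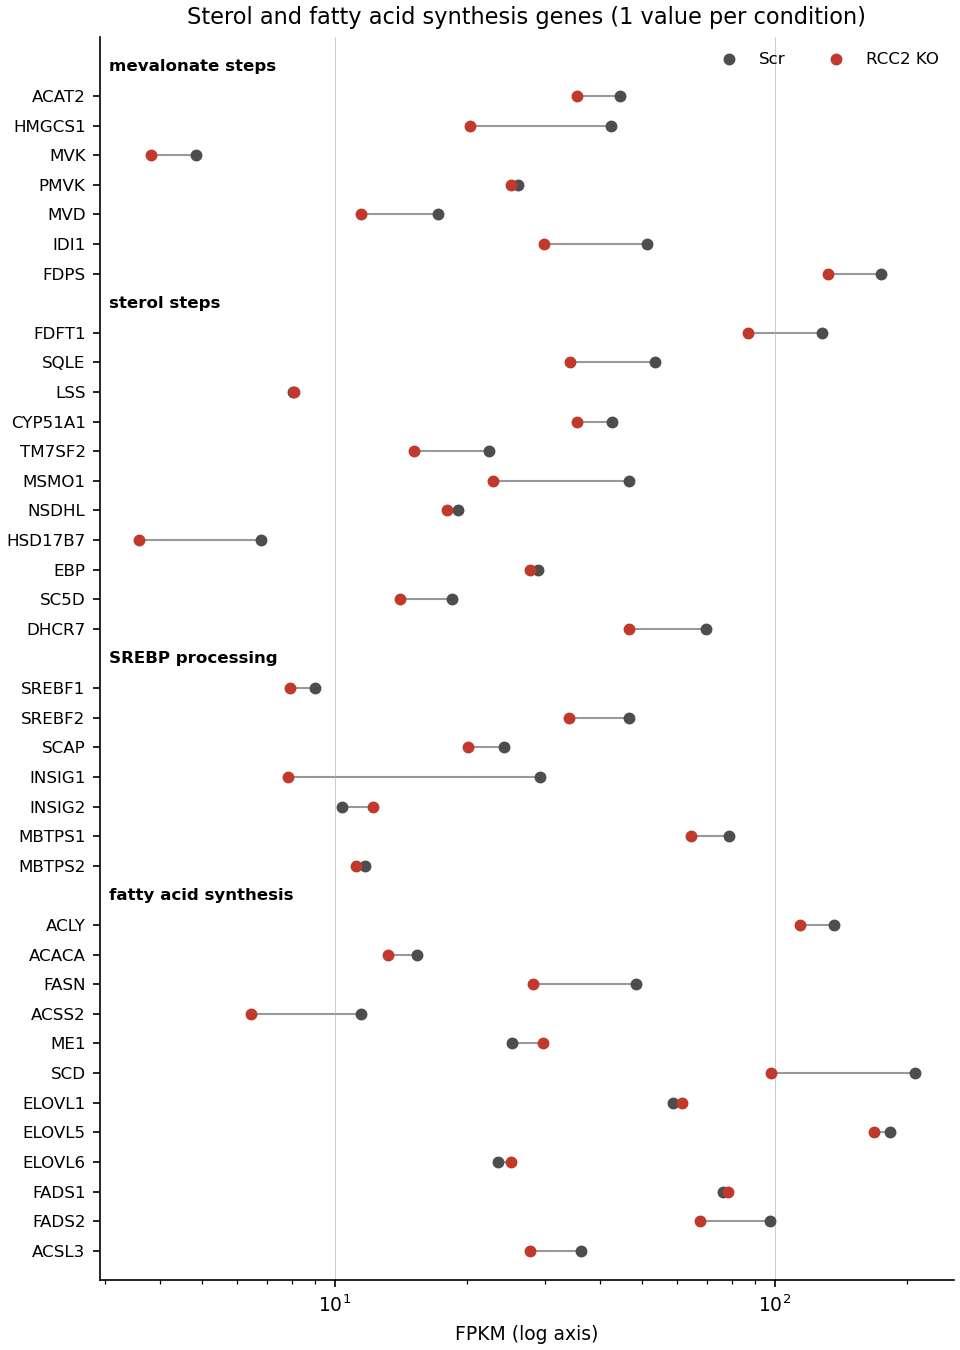
Levels of named sterol, SREBP and fatty acid synthesis genes in FPKM (x axis, log scale), with 1 value for Scr (grey) and 1 for RCC2 KO (red) joined by a line. Red lies left of grey in the cholesterol synthesis genes drawn except LSS, where the points coincide, and the longest line is that of INSIG1, from 29.2 to 7.83 FPKM.

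Against the same Scr values, the CD24 KO column stood on the other side for several of these genes. HMGCS1 was at 62.0 FPKM in CD24 KO, MSMO1 at 85.9 FPKM, SQLE at 118 FPKM and SCD at 466 FPKM, each above Scr. INSIG1 was at 34.7 FPKM, beside 29.2 FPKM in Scr. The median of the cholesterol synthesis list was 0.53 in that comparison. Because the Scr values are common to both comparisons, they are given side by side only.

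The sequence upstream of these genes is shown because SREBP acts through short sites near the start site, usually beside a CCAAT box that binds NF-Y. RefSeq promoters (GRCh38.p14) were found for 15 of the 20 cholesterol synthesis genes. In the 250 bases before the start site, on both strands, CCAAT was present in 12 of the 15 (80%) and in 33.0% of all 27305 promoters. TCACNCCA, the core of a sterol regulatory element, was present in 2 of the 15, MVK and MSMO1, and in 3.18% of all promoters. ACAT2, FDFT1 and SQLE were among those with no entry. The windows below run toward the start site, with both motifs in capitals on either strand (CCAAT reads ATTGG on the other). MSMO1 lies at chr4:165327469-165327643 on the plus strand, HMGCS1 at chr5:43313492-43313582 on the minus strand and INSIG1 at chr7:155297698-155297783 on the plus strand.
MSMO1: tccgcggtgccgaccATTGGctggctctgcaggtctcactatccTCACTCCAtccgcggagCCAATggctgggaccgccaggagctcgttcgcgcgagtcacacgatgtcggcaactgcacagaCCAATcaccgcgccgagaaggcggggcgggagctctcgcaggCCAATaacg
HMGCS1: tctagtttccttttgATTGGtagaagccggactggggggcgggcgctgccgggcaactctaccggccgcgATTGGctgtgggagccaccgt
INSIG1: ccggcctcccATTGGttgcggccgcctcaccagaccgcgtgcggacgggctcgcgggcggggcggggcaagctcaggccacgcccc
The MSMO1 window holds 4 CCAAT boxes around 1 TCACNCCA match, HMGCS1 holds 2 boxes and INSIG1 holds 1 box. Such matches describe letters only and are not shown to be bound in these cells.

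Small RNAs left out, TXNIP had the lowest difference of the genes with a value above 0 in both columns and at least 5 FPKM in one. It encodes an arrestin-like inhibitor of thioredoxin and of glucose uptake, and its transcription follows glucose through the factor pair MondoA (MLXIP) and MLX. TXNIP was at 82.9 FPKM in Scr and 7.52 FPKM in RCC2 KO (-3.30), and at 34.7 FPKM in CD24 KO. The table assigns it a wide interval, hg19 chr1:144146811-146467744, that 27 genes carry, so fragments may have been divided with neighbours. The related arrestin ARRDC3, also a target of MondoA, was at 51.5 and 37.9 FPKM (-0.43), and ARRDC1 and ARRDC2 lay within 0.13 of equal. MLXIP was at 9.18 and 10.6 FPKM, MLX at 46.8 and 51.7 FPKM and thioredoxin (TXN) at 411 and 436 FPKM. Of the 11 genes compared in this list, TXNIP alone was past 1.5-fold.

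Among immediate early genes, which cells induce within minutes of a stimulus and many of which encode transcription factors, a few were much lower. Most were near equal. Of 36 compared, 22 were lower, 5 at least 1.5-fold, and none was at least 1.5-fold higher, with a median of -0.04. FOS, the inducible partner of JUN in AP-1, was at 27.8 FPKM in Scr and 4.84 FPKM in RCC2 KO (-2.30), at hg19 chr14:75745481-75748937. JUNB was at 45.2 and 22 FPKM (-1.01). EGR1, a zinc finger factor induced through SRF, was at 87.2 and 43.4 FPKM (-0.99). NR4A2, an orphan nuclear receptor, was at 5.80 and 2.37 FPKM (-1.01), and ZFP36, which speeds the decay of AU-rich mRNAs, at 50.9 and 31.0 FPKM (-0.70).

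The other 7 AP-1 subunits compared lay between -0.17 and 0.34. FOSL1 was by far the most abundant, at 199 and 208 FPKM, FOSL2 was at 35.7 and 45.4 FPKM, and JUN at 23.8 and 28.0 FPKM. The 15 further genes, of MAPK feedback and other early responses, had a median of -0.01. Several were near equal, with CYR61 at 216 and 215 FPKM, ERRFI1 at 143 and 159 FPKM, and DUSP6 at 9.64 and 9.12 FPKM. In CD24 KO, FOS was at 3.58 FPKM, while EGR1 was at 81.7 FPKM and JUNB at 36.1 FPKM. EGR1 is shown with its upstream sequence because SRF binds the CArG box, which was found in 2 of 29 immediate early promoters (EGR1 and SRF) and in 1.14% of all promoters. The window is at chr5:138465359-138465419 (GRCh38.p14, plus strand), with 2 CArG boxes in capitals.
EGR1: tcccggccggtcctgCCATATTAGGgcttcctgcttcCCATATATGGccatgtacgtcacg
SRF itself was at 25.5 and 25 FPKM.

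Interferon-stimulated genes leaned the other way. Cells induce them when cytosolic sensors detect viral or misplaced nucleic acid, through IRF and STAT factors. Of 31 compared, 23 were higher in the libraries labelled RCC2 KO, 4 at least 1.5-fold, and none was at least 1.5-fold lower, with a median of 0.19. OAS1 was under 1 FPKM in Scr, and the other 30 had at least 1 FPKM in both conditions. The 4 genes were IFI44, at 1.34 FPKM in Scr and 5.26 FPKM in RCC2 KO (1.42), IFIT3 at 6.55 and 12.4 FPKM (0.82), IFIT2 at 5.43 and 10 FPKM (0.78), and OASL at 3.34 and 6.32 FPKM (0.75). IFIT proteins bind foreign RNA, and OASL strengthens signaling by the sensor RIG-I.

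Most of these levels were low, and not every classical member was among the higher genes. Of 31 antiviral effectors, 19 were compared and 16 of these were higher. RSAD2 and CMPK2 were listed at 0 in both conditions, IFI44L was at 0.00773 and 0.00998 FPKM, and USP18 was at 12.4 FPKM in both. The abundant IFITM3 was at 97.0 and 106 FPKM. Of the factors, STAT2 was at 11.9 and 10.2 FPKM, IRF1 at 13.4 and 11.2 FPKM and IRF9 at 3.49 and 4.35 FPKM. Antigen presentation genes did not follow the effectors, with 3 of 6 higher, a median of -0.05 and HLA-C at 80.8 and 56.6 FPKM. In CD24 KO, IFI44 was at 2.84 FPKM, IFIT3 at 10 FPKM and OASL at 12.5 FPKM, also above the same Scr values.

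Such effectors are known for the interferon-stimulated response element, whose core is GAAA, any 2 bases and GAAA again. This core was present on either strand in 17 of the 25 antiviral effector promoters found (68.0%) and in 3.07% of all promoters. IFIT3 is shown at chr10:89327837-89327897 and IFI44 at chr1:78649699-78649788, both GRCh38.p14 and plus strand, with the element in capitals on the other strand.
IFIT3: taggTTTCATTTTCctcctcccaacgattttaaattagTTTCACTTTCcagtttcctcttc
IFI44: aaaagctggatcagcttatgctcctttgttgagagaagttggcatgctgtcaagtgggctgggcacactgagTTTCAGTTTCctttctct
IFIT3 holds 2 elements and IFI44 holds 1 in the windows shown.

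**Figure D3:**
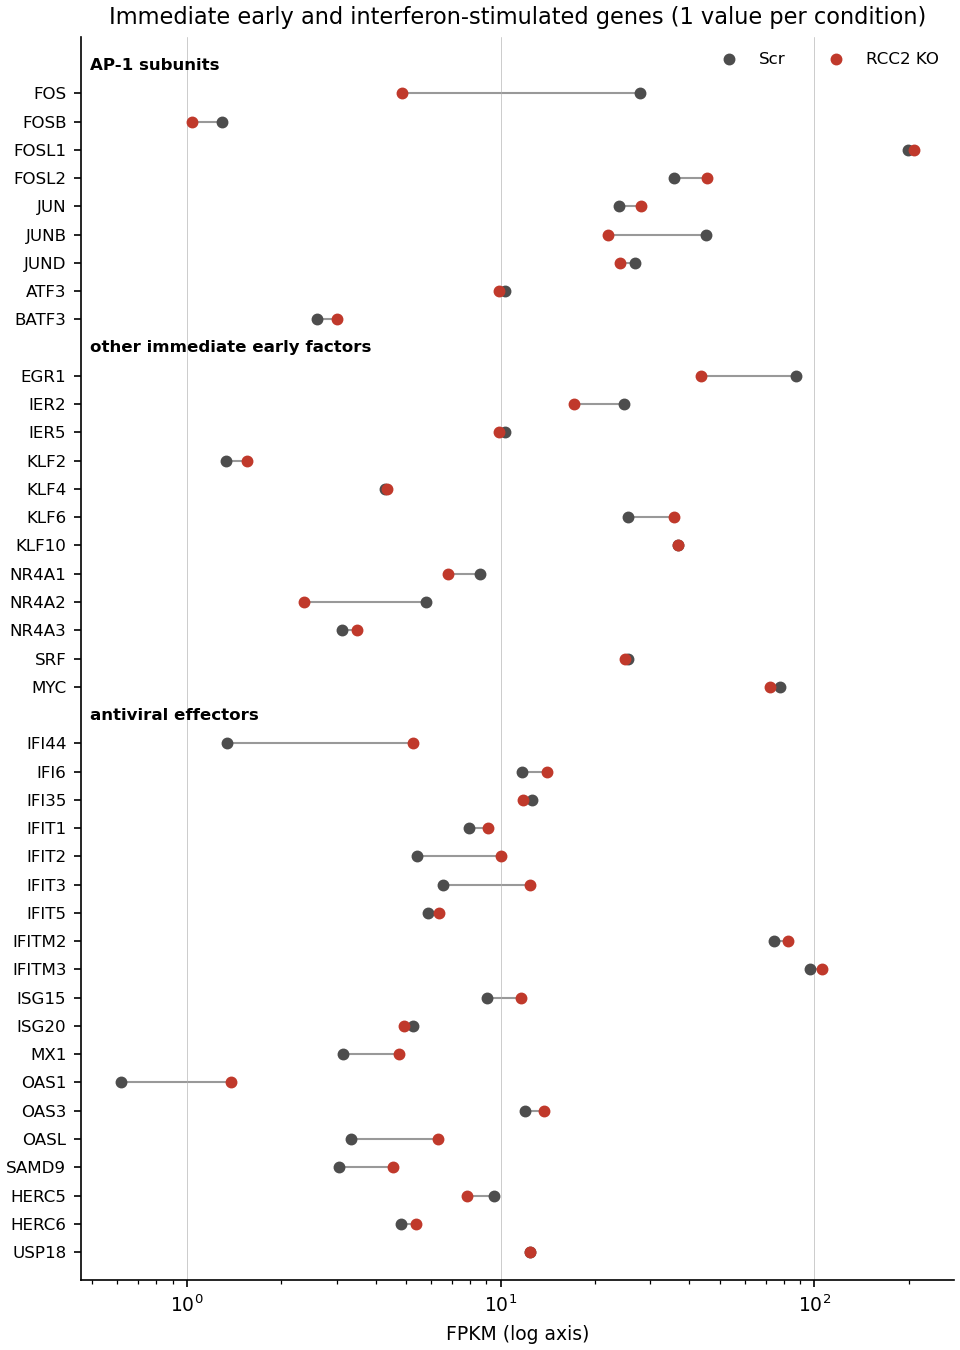
Levels of AP-1 subunits, other immediate early factors and antiviral effectors in FPKM (x axis, log scale), with 1 value for Scr (grey) and 1 for RCC2 KO (red) joined by a line. FOS, JUNB, EGR1 and NR4A2 have red far left of grey, FOSL1 and MYC have both nearly together, and red lies right of grey in 16 of 19 antiviral effectors, furthest for IFI44.

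Replication-dependent histone genes were lower in every case that could be compared. These genes encode the bulk of the histones that package new DNA in S phase, and their mRNAs mostly end in a stem-loop in place of a poly(A) tail. Whether the RNA counted for each member carried a tail was not tested. Of 57 listed, 34 were compared and all 34 were lower, 30 of them at least 1.5-fold, with a median of -1.21. Of the 34, 15 reached 1 FPKM in Scr only, so their inclusion favours a lower value. The 19 genes with at least 1 FPKM in both conditions were all lower too, 15 at least 1.5-fold, with a median of -0.79. Among those left out under 1 FPKM, some were higher, with HIST1H2AK at 0.449 and 0.851 FPKM, HIST3H2BB at 0.515 and 0.634 FPKM and HIST1H4J at 0 and 0.247 FPKM. HIST2H2AC was at 10.4 and 0.563 FPKM (-2.86), HIST1H3B at 10.8 and 1.42 FPKM (-2.29) and HIST1H1E at 7.81 and 1.01 FPKM (-2.14). The most abundant members differed less, HIST1H2BK at 464 and 421 FPKM (-0.14) and HIST1H1C at 338 and 221 FPKM (-0.61), so the summed level was 1165 FPKM in Scr and 805 FPKM in RCC2 KO. Many of these genes are near-identical copies, and the division of fragments between them is uncertain.

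Several measures moved with the histones or stood still beside them. Replacement histones, whose mRNAs carry a poly(A) tail, had a median of -0.04 over 8 genes, with H2AFZ at 277 and 324 FPKM, although H1FX was at 54.6 and 34.0 FPKM (-0.67). Genes of S phase entry and DNA synthesis had a median of 0.02 over 20 genes, PCNA being at 123 and 122 FPKM and RRM2 at 138 and 141 FPKM. Of the 20, 1 gene was past 1.5-fold, higher in RCC2 KO. Of 54 small RNAs compared, most of which lack a poly(A) tail as well, 34 were past 2-fold in one direction or the other. RMRP and RPPH1, the RNA parts of RNase MRP and RNase P, are among these 54 and were picked after their values were seen. They were at 1256 and 89.0 FPKM and at 165 and 15.1 FPKM. RNU6ATAC, also among the 54, went the other way, at 0 and 1583 FPKM. With small RNAs left out, 38 genes were 2-fold higher and 82 lower, in place of 52 and 102. The labels name a kit for total RNA and the study's methods a stranded mRNA kit, and the part of RNA selection in the histone values was not tested. In CD24 KO the histone median was -1.06 against the same Scr values.

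Genes that work with RCC2 in division were slightly higher and close together. The list held 27 genes for the RCC family, RCC2 itself included, the Ran cycle, the chromosomal passenger complex and the spindle. Of the 27, 22 were higher and none was past 1.5-fold, with a median of 0.12 and a range from -0.22 to 0.28. RCC1 was at 40.3 and 47.9 FPKM, and RAN at 152 FPKM in both. Of the passenger complex, BIRC5 (survivin) was at 59.9 and 72.7 FPKM, AURKB at 60.7 and 66.7 FPKM, and INCENP, the scaffold, at 25.1 and 21.3 FPKM. CCNB1, the mitotic cyclin, was at 94.5 and 115 FPKM. Among 26 genes of G1 control the median was 0.02, and the CDK4/6 inhibitor CDKN2D alone was past 1.5-fold, at 6.0 and 3.37 FPKM (-0.68). The 15 p53 targets compared had a median of 0.07, with CDKN1A at 31.9 and 28.4 FPKM.

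Of 11 small GTPases compared, with a median of 0.01, RND1 was lowest at 3.89 and 2.51 FPKM (-0.48) and RHOB highest at 14.7 and 19.1 FPKM (0.36). RAC1 was at 133 and 139 FPKM, ARF6 at 148 and 153 FPKM and RHOA at 375 and 377 FPKM. Vimentin (VIM), the intermediate filament protein of mesenchymal cells, was at 540.0 and 605 FPKM, in an interval shared by 2 genes. Of 39 small GTPase and cytoskeleton genes compared, 27 were higher and none was past 1.5-fold, with a median of 0.06. Keratins, the epithelial filaments, were all higher among the 7 compared, with a median of 0.35. KRT7 was at 320.4 and 449 FPKM (0.49) and KRT80 at 48.2 and 69.9 FPKM (0.53), while KRT8 and KRT18 differed by 0.05 and 0.06. KRT4 alone was past 1.5-fold, at 0.0791 and 1.46 FPKM, and passed the minimum through RCC2 KO only, as did KRT15.

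At the cell surface, only single adhesion genes were past 1.5-fold, while most integrins were lower by smaller amounts. JUP, the plakoglobin of desmosomes and adherens junctions and a close relative of β-catenin, was at 89.0 FPKM in Scr and 42.0 FPKM in RCC2 KO (-1.06), and at 44.7 FPKM in CD24 KO. E-cadherin (CDH1) was at 27.9 and 23.7 FPKM, P-cadherin (CDH3) at 45.1 and 48.2 FPKM, and N-cadherin (CDH2) was listed at 0 in both. The median over 18 cadherin, junction and EMT genes was -0.05, and of 6 EMT factors compared, SNAI1, SNAI2, ZEB1 and TWIST2 lay within 0.28 of equal, while the epithelial splicing regulators ESRP1, at 2.68 and 3.79 FPKM, and ESRP2, at 5.94 and 8.60 FPKM, differed by 0.38 and 0.47. Of 10 integrins compared, 9 were lower, with a median of -0.28. ITGB5 was at 27.8 and 15 FPKM (-0.85), ITGB1, the common partner of most alpha chains, at 818 and 609 FPKM (-0.42), and ITGB4, the hemidesmosome integrin, was the one higher, at 6.61 and 9.40 FPKM.

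Of 28 matrix and adhesion genes, 2 were at least 1.5-fold higher. F13A1, the transglutaminase subunit of clotting factor XIII, was at 2.93 and 14.0 FPKM (1.93), and at 3.92 FPKM in CD24 KO. Its interval is shared by 3 genes. TNC, a matrix protein of healing and tumor tissue, was at 11.0 and 19.4 FPKM (0.76). The protease inhibitor SLPI was at 80.5 and 23.1 FPKM (-1.76), but at 132 FPKM in CD24 KO.

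In BMP and TGF-β signaling, single genes stood out in both directions while the pathway as a whole did not. Of 26 compared, 3 were at least 1.5-fold higher and 3 at least 1.5-fold lower, with a median of -0.02. NOG reached 1 FPKM in RCC2 KO only and BMP6 in Scr only, so their inclusion favours a difference, and of the 22 genes with at least 1 FPKM in both conditions 2 were at least 1.5-fold higher and 2 lower. The ligand BMP4 was at 1.89 FPKM in Scr and 9.50 FPKM in RCC2 KO (1.86), at hg19 chr14:54416455-54423609, and its antagonist NOG (noggin) at 0.931 and 2.41 FPKM (0.82). The receptor TGFBR2 was at 39.7 and 64.6 FPKM (0.69). Lower were the follistatin-like gene FSTL1, at 4.10 and 1.89 FPKM (-0.82), the ligand BMP6, at 1.38 and 0.527 FPKM (-0.64), and SMAD2, which carries the TGF-β signal to the nucleus, at 25.8 and 15.3 FPKM (-0.71). The SMAD4 value, that of the partner common to both branches, was 10.5 and 7.52 FPKM (-0.43). The target genes of the list were mixed, with 1 of 5 higher and 4 lower and a median of -0.04. The higher gene was ID2, at 23.0 and 31.8 FPKM (0.45), while ID1 was at 46.8 and 46.0 FPKM and ID3 at 81.2 and 70.4 FPKM.

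Wnt/β-catenin genes, the pathway that the study examined with this experiment, were balanced in the list used here. By gene set enrichment, the study reports the pathway as higher in RCC2 KO cells. By Western blot it reports more active β-catenin and less AXIN2 and APC protein. The list here is a different gene set and its values are RNA, so it does not test those results. Wnt ligands bind FZD and LRP receptors, which stops APC, AXIN and GSK3 from marking β-catenin for destruction. Of 47 genes compared, 23 were higher and 24 lower, 1 past 1.5-fold in each direction, with a median of -0.03, or 0.02 over the 45 genes with at least 1 FPKM in both conditions. The ligand WNT7B was at 9.68 and 16.3 FPKM (0.70), and KREMEN1, a receptor of the antagonist DKK1, at 7.29 and 4.28 FPKM (-0.65). β-catenin itself (CTNNB1) was at 63.1 and 67.3 FPKM, APC at 11.7 and 12.9 FPKM, and AXIN2, a direct target and a feedback inhibitor, at 1.27 and 0.819 FPKM. The receptor LRP5 was at 29.1 and 20.4 FPKM and the coreceptor ROR1 at 15.1 and 21.7 FPKM. Of other genes used as targets, CCND1 was at 154 and 181 FPKM and CD44 at 33.9 and 47.7 FPKM, whereas NKD2, an inhibitor of the pathway, was at 9.78 and 6.45 FPKM.

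**Figure D4:**
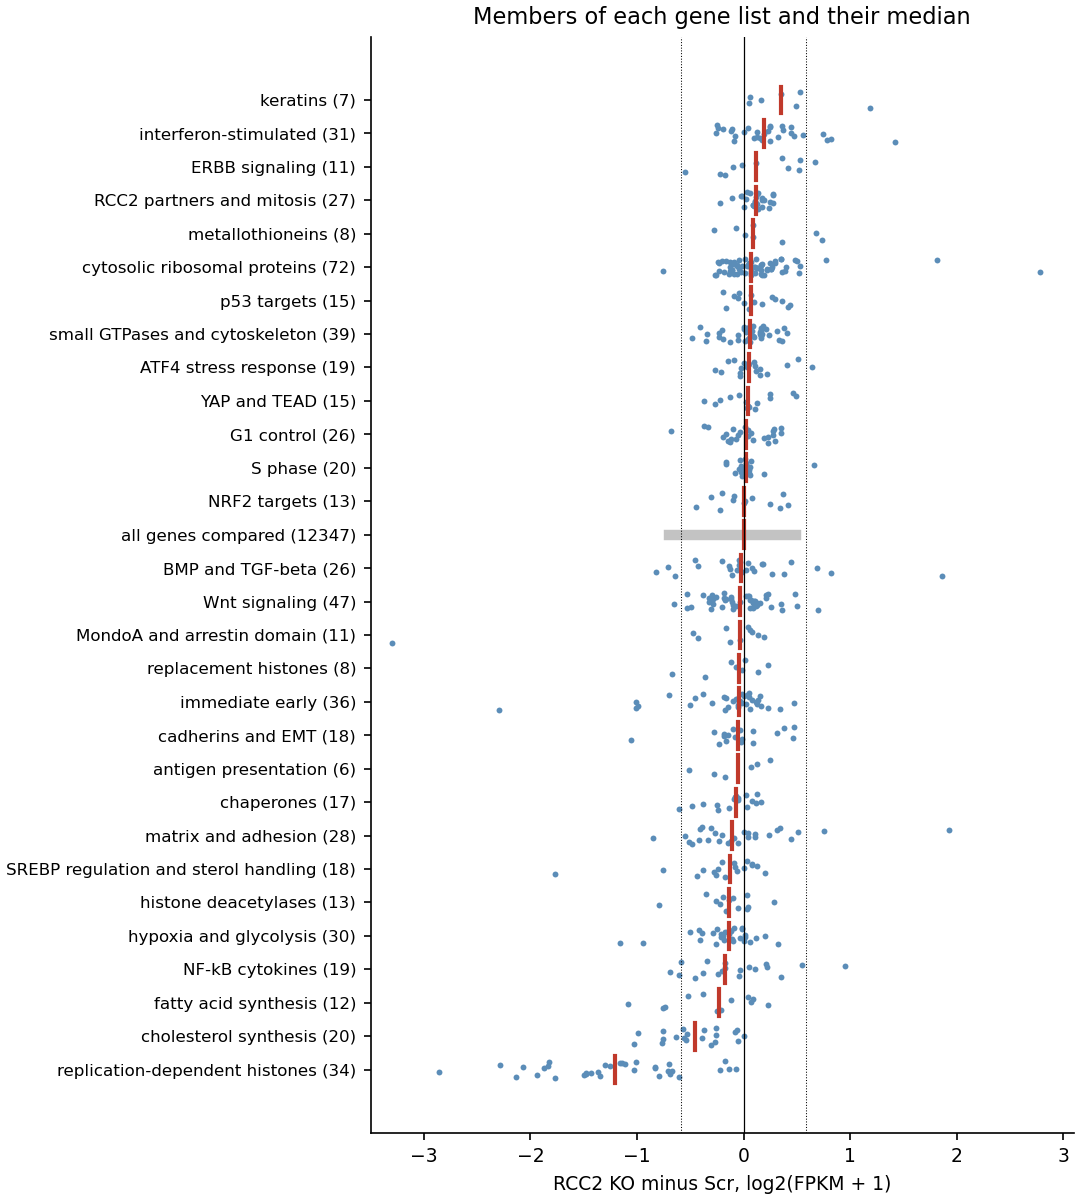
Log2 difference (RCC2 KO minus Scr, x axis) of every member compared (points) in each gene list, with the number of members in parentheses and the median as a red bar; the grey bar spans the central 95% of all genes, and dotted lines mark 1.5-fold. The replication-dependent histones lie furthest to the left with a median of -1.21, followed by cholesterol synthesis at -0.46, and the keratins furthest to the right at 0.35, while single genes such as TXNIP, FOS, BMP4 and F13A1 lie far from the median of their lists.

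Genes of glucose use and hypoxia were slightly lower. Glycolysis turns glucose into lactate in cells of high growth, and HIF1 raises many of its enzymes. Of 16 glycolysis genes compared, 14 were lower and none was past 1.5-fold, with a median of -0.16 and a summed level of 8951 FPKM in Scr and 7549.6 FPKM in RCC2 KO. GAPDH was at 2723 and 1927 FPKM (-0.50), ALDOA at 1305 and 1065 FPKM and LDHA at 710.4 and 597 FPKM, while PKM was at 1502 and 1496 FPKM. Of 14 hypoxia targets, NDRG1 was at 156 and 69.1 FPKM (-1.16) and ANGPTL4, a secreted lipase inhibitor, at 38.6 and 19.6 FPKM (-0.94). The others were nearer to equal, VEGFA at 64.1 and 80.4 FPKM and BNIP3 at 43.4 and 45.2 FPKM.

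Stress pathways differed little. The ATF4 list had a median of 0.05 over 19 genes, SLC7A11, the cystine carrier, alone being past 1.5-fold at 7.45 and 12.1 FPKM in an interval shared by 3 genes. NRF2 targets had a median of 0.00 over 13 genes, none past 1.5-fold, with NQO1 at 449.6 and 570.2 FPKM and HMOX1 at 88.7 and 64.6 FPKM. Chaperones had a median of -0.07 over 17 genes. Several of the endoplasmic reticulum were lower, HSP90B1 at 649 and 426 FPKM (-0.61, interval shared by 2 genes), PDIA4 at 238 and 170.1 FPKM and CALR at 872 and 669 FPKM, whereas cytosolic HSPA8 was at 1764 and 1864 FPKM. HSPA2, a further HSP70 gene that is no member of that list, was at 64.1 and 20.9 FPKM (-1.57).

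Of 8 genes for metallothioneins and zinc export, 2 were at least 1.5-fold higher, MT1E at 176 and 296 FPKM and MT1M at 24.2 and 39.4 FPKM. MT2A was at 1553 and 1479 FPKM, and these genes are similar copies. Of 19 NF-κB genes, CSF1, the growth factor of macrophages, was at 62.7 and 122 FPKM (0.95), and the apoptosis inhibitor BIRC3 at 66.7 and 44.0 FPKM (-0.59). The chemokines CCL5, at 4.95 and 2.68 FPKM, and CXCL5, at 4.77 and 2.79 FPKM, were also at least 1.5-fold lower, CXCL8 was at 141 and 119 FPKM, and the list's median was -0.17.

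The remaining lists had medians within 0.14 of 0. YAP and TEAD genes had a median of 0.04 over 15 genes, AXL being at 153 and 215 FPKM. ERBB ligands and receptors had a median of 0.12 over 11 genes, which was -0.01 where at least 1 FPKM was required in both columns. The ligand BTC was at 2.35 and 4.32 FPKM and the receptor ERBB3 at 12 and 7.89 FPKM. Of 13 histone deacetylases, with a median of -0.14, HDAC5 was at 6.83 and 3.53 FPKM (-0.79), in an interval shared by 2 genes. Ribosomal protein genes had a median of 0.07 over 72 genes. Among those that stood apart were RPS28 at 0 and 2.54 FPKM, RPS27A at 22.2 and 38.4 FPKM and RPL23A at 38.7 and 22.5 FPKM. Ribosomal protein genes have many processed pseudogenes, so these values are uncertain.

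Outside the lists, KLF9, a Krüppel-like factor induced by glucocorticoids, was at 10.2 and 2.25 FPKM (-1.79), and at 9.14 FPKM in CD24 KO. PITPNM3, a membrane-associated phosphatidylinositol transfer protein, was at 1.80 and 6.13 FPKM (1.35). Small RNAs again left out, the largest positive differences above 0 in both columns included those of LOC101927318, at 0.125 and 7.96 FPKM, and of the readthrough transcript ARL2-SNX15, at 0.0167 and 5.56 FPKM. LOC101927318 shares its interval with others, 3 genes in all, as does ARL2-SNX15, 4 genes in all. Also among the 12 highest were CDC37L1-AS1 at 1.67 and 5.69 FPKM, ATP5EP2 at 3.14 and 8.98 FPKM, LOC100505874 at 19 and 46.8 FPKM and TIMM23B at 2.97 and 8.36 FPKM, the last in an interval of 7 genes. ATP5EP2 is a pseudogene and TIMM23B a near-copy of TIMM23.

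The widest differences of all belonged to short noncoding RNAs listed at 0 in a column. In Scr, MIR622, RNU6ATAC and SNHG25 were listed at 0, against 3921, 1583 and 1384 FPKM in RCC2 KO. SNORA18 and SNORA101B (both 90.9 FPKM in RCC2 KO) and SNORA16A (78.1 FPKM) were also at 0 in Scr. In the opposite direction, SNORA22, SNORA14B, SNORA67, SNORA63C, SNORA2A and SNORA63 were at 331, 292, 259, 200.2, 154 and 146 FPKM in Scr and listed at 0 in RCC2 KO. Because scaling to length gives a short RNA a high FPKM from few fragments, and the depth is unknown, no fold is given for these genes.

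Chromosome 18 differed from the other chromosomes. Over the 151 genes with a mean of at least 3 FPKM, the median was -0.21, and 124 (82.1%) were lower, against 47.1% of the 9875 genes elsewhere. The next lowest median was -0.05, on chromosome 19. The difference ran along the chromosome, with 43 of 51 genes lower in the third nearest the end of the short arm, 38 of 50 in the middle and 43 of 50 in the last, and medians of -0.15, -0.16 and -0.28. SMAD2 and SMAD4, described above, lie on chromosome 18. Examples chosen after their values were seen are RAB31, a GTPase of vesicle traffic, at 142 and 85.6 FPKM (-0.72), LMAN1, a cargo receptor of the secretory pathway, at 128 and 79.3 FPKM (-0.68), and the laminin chain LAMA1 at 27.3 and 15.6 FPKM (-0.76). In all, 10 of the 151 genes (6.62%) were at least 1.5-fold lower. This share was close to those of chromosome 19 (5.73%) and chromosome 6 (5.24%), the next highest, so chromosome 18 stood apart less by this measure. SERPINB5 (maspin), at 3.43 and 6.47 FPKM, was the 1 gene at least 1.5-fold higher. TYMS, the thymidylate synthase, was at 134 and 133 FPKM. In CD24 KO the chromosome 18 median was -0.09.

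**Figure D5:**
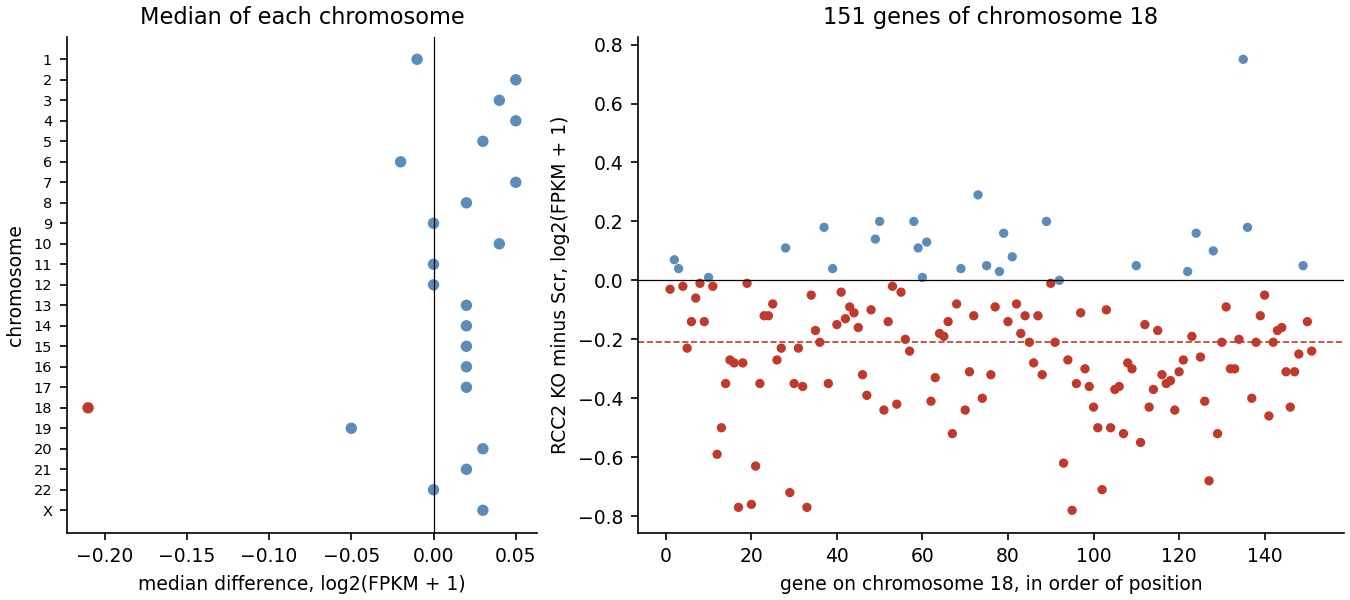
Left, median log2 difference (RCC2 KO minus Scr, x axis) of the genes on each chromosome (y axis); right, the log2 difference (y axis) of the 151 genes of chromosome 18 in order of position (x axis), with lower genes in red, higher genes in blue and the median of -0.21 as a dashed line. Chromosome 18 lies apart at -0.21 while the other chromosomes lie between -0.05 and 0.05, and its lower genes are found along its whole length.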

How the data were processed

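RNA-seq of 6 DU145 libraries was used as 1 deposited table of 27381 genes with 3 columns of FPKM, 1 per condition. The authors scaled the values before deposit and gave 1 column per condition. Whether the RCC2 KO column combines its 2 libraries cannot be read from its name. The submitters' processing notes list HISAT, StringTie, Cufflinks and GATK without role or version, and the genome build is not given in the sources used here. Coordinates were read as hg19, since 40 genes lie on scaffolds named as in that build, and no hg19 genome was used. The labels name a TruSeq RNA kit for total RNA, the study's methods a stranded mRNA kit. Depth is unknown: among 2277 genes under 0.3 FPKM, the commonest ratio between the columns held for 2.64%, and no read steps could be derived.

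Genes with at least 1 FPKM in Scr or RCC2 KO were compared as log2(FPKM + 1). The planned limma fit needs a value per library and could not be run. Called means at least 2-fold, or 1.5-fold within lists, on that scale. Genes named were RCC2 and CD24, list members past 1.5-fold with at least 5 FPKM, the 12 largest differences each way above 0 in both columns, up to 6 each way listed at 0 in one, genes the paper names in this model, and abundant members of a list. Other genes are list members given as context. Some genes that this rule names are not reported here. The members and lists were chosen with earlier results of these data known. The 13 protein genes of the mitochondrial genome were also listed, and 0 of them are in the table under the symbols used. Promoters came from RefSeq (GRCh38.p14), searched 250 bases upstream. Chromosomes with at least 25 genes were summarised over genes with a mean of at least 3 FPKM.

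The arithmetic was checked on simulated data: of 12222 genes, 200 given a 4-fold difference were all past 2-fold and 0 others were. The 4-fold differences were given only to well expressed genes, and the other genes had less spread than in these data. The outcome was thus set by these choices and gives no error rate for the genes called here. Alternatives were pseudocounts of 0.1 and 5, no filter, at least 1 FPKM in both columns, median centring, quantile normalization, and leaving out genes at 0 or small RNAs. Python 3.11.15, NumPy 2.4.6, pandas 2.3.3 and matplotlib 3.10.9 were used.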

Additional observations from a re-analysis of the deposited data

How the results depend on the processing

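The number of genes past 2-fold depended on the treatment of low values. Against 52 genes higher and 102 lower, a pseudocount of 0.1 gave 100 and 277, a pseudocount of 5 gave 23 and 31, and at least 1 FPKM in both columns gave 23 and 46. Without genes listed at 0, 32 were higher, and 78 lower. Chosen after seeing the data, a 1.5-fold minimum gave 185 and 482, and leaving out genes that share their interval gave 23 and 64. No filter, median centring, quantile normalization and leaving out small RNAs kept both counts within 1.5 times. The cause of these differences was not tested.

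Of 86 named genes under these settings, with 748 values, none past 1.5-fold changed direction, and 17 values fell below 1.5-fold, all with a pseudocount of 5. Of 288 recomputed list medians, 1 past 0.1 in size changed direction, that of the ERBB list, from 0.12 to -0.01 with at least 1 FPKM in both columns. Medians nearer to 0, such as those of the Wnt, MondoA and G1 lists, changed sign under some settings. The histone median was -0.56 with a pseudocount of 5, where 16 of its genes were at least 1.5-fold lower, and with at least 1 FPKM in both columns 15 were. With a pseudocount of 5, 2 interferon-stimulated genes were at least 1.5-fold higher.

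No paired analysis was possible because the table gives 1 value per condition, and leaving out each replicate or a replicate block could not be run for the same reason. Low FPKM values carry an unknown counting error.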

Other observations

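Genes of the circadian clock were looked at after their values had been seen. The clock runs on CLOCK and ARNTL (BMAL1), which drive their own repressors and output factors such as DBP. Of 17 listed genes, 11 were compared and 7 were lower in the libraries labelled RCC2 KO, 3 at least 1.5-fold, with 1 at least 1.5-fold higher. The output factor DBP was at 5.98 FPKM in Scr and 2.39 FPKM in RCC2 KO (-1.04 on the log2 scale), the repressor PER1 at 3.0 and 1.43 FPKM (-0.72) and BHLHE40 at 38.9 and 21.1 FPKM (-0.85). On the other side, NR1D2 was at 9.53 and 18.8 FPKM (0.91) and ARNTL at 18.3 and 25.6 FPKM (0.46), while CLOCK was at 11.7 and 12.7 FPKM.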
